A study of Homo sapiens with 16 samples.

Results

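The genes described here are 45 human genes of mitosis, chosen by name as the kinases, checkpoint proteins, kinetochore and centromere subunits, condensins, spindle motors and cytokinesis factors of a dividing cell. All 45 were matched by symbol to Ensembl identifiers in the deposited count tables, which hold 60676 gene identifiers, and all 45 were among the 21569 genes that passed the filter on low counts. The samples were cultures of 2 human melanoma cell lines, A101D, labelled as methionine dependent, and MeWo, which the series describes as methionine independent because homocysteine can replace methionine in its medium. RNA of each line was sequenced in 8 libraries, numbered as replicates 1 to 8. The growth protocol, common to all samples, gives 2 media, a control with L-methionine at 200 µM and another in which L-homocysteine at 200 µM takes its place, but which replicate had which medium is not in the labels. Replicates 1-4 and 5-8 of each line are therefore set apart by number only, and no medium or treatment is assigned to them. That split was made with earlier results of these data known, so its p-values are not independent evidence that the ranges differ. Each kind of methionine dependence is represented by 1 line, and the labels do not say whether replicates are separate cultures, so p-values measure the spread between these libraries, which may be technical.

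Mitosis separates the copied chromosomes into a pair of daughter cells. CDK1 with its cyclins starts it, Polo-like and Aurora kinases build and correct the spindle, kinetochores tie chromosomes to microtubules, and the anaphase-promoting complex ends it by marking securin and cyclin B for destruction. Most of these genes are transcribed late in the cell cycle, from promoters bound by NF-Y, by the MuvB complex with B-MYB, and by FOXM1, and the DREAM form of MuvB represses the same promoters in resting cells. Their summed RNA is widely read as a marker of proliferation.

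Promoters are printed for SPC25, PLK1, CDC20 and KIF23 because they span the responses described below, from the kinetochore gene that differed most to the cytokinesis gene that differed least. These 4 were chosen after their values were seen. Each sequence holds the 250 bases before the RefSeq start site and the first 10 bases after it, 5′ to 3′ on the strand of the gene, from RefSeq with build GRCh38.p14. Capitals mark TTTGAA, the core of the cell cycle genes homology region (CHR) that MuvB binds, and CCAAT, the box that NF-Y binds, on either strand (TTCAAA and ATTGG on the other).
SPC25 (chr2:168890421-168890680, minus strand): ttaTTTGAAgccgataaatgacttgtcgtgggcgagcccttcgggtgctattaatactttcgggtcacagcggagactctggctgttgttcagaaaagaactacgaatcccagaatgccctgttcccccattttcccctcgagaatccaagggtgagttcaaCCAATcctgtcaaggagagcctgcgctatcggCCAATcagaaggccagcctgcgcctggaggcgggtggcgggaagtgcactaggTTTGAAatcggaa
PLK1 (chr16:23678639-23678898, plus strand): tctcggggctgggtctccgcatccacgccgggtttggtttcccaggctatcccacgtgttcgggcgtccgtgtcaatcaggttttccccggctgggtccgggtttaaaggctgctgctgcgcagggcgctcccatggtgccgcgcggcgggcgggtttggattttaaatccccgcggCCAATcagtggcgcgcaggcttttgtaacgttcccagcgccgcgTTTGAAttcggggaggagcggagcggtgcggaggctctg
CDC20 (chr1:43358731-43358990, plus strand): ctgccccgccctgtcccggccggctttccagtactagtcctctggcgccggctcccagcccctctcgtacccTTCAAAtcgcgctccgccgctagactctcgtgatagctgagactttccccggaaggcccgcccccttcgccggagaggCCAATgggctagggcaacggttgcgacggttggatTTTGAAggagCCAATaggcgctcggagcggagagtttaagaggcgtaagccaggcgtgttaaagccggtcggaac
KIF23 (chr15:69414099-69414358, plus strand): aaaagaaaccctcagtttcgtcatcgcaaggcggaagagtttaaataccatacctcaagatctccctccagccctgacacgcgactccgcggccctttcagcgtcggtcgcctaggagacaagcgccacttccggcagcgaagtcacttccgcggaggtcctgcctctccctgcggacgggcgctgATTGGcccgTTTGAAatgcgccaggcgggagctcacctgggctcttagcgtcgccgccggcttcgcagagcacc
SPC25 and CDC20 each had 2 CHR words and 2 CCAAT words, and PLK1 and KIF23 had 1 of each. The first base of the CHR word nearest to the start site lay at position -3 in SPC25, -29 in PLK1, -65 in CDC20 and -55 in KIF23, where -1 is the base before the start site.

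In A101D, all 45 mitosis genes were lower in replicates 5-8 than in replicates 1-4 (limma, adjusted p under 0.05 over all genes tested), with no overlap between the libraries of the ranges. The median log2 difference over the 45 was -1.73, a 3.32-fold lower level, against 0.01 over all 21569 genes. Of all genes tested, 32.4% were lower by the same test and 29.6% were lower with no overlap. Levels more than 2-fold lower, at a limma adjusted p under 0.05, were found for 41 of the 45 and for 6.56% of all genes. By the same test, 12 of the 45 and 1.03% of all genes were more than 4-fold lower. In MeWo, 35 of the 45 did not pass the test, 7 were higher and 3 lower, against 6.16% higher and 7.45% lower of all genes tested. The median log2 difference over the 45 in MeWo was 0.04. These are bulk samples, so fewer cells in mitosis and less mitotic RNA per cell cannot be told apart.

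The sum over the 45 genes shows the same levels library by library. It lay between 3828 and 4007 CPM (counts per 1000000 counts, on scaled library sizes) in A101D replicates 1-4 and between 1286 and 1375 CPM in A101D replicates 5-8. In MeWo it lay between 5940 and 6102 CPM in replicates 1-4 and between 6093 and 6333 CPM in replicates 5-8. MeWo thus had the highest sums in both ranges, and A101D replicates 5-8 stood apart as the lowest group without overlap.

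**Figure D1:**
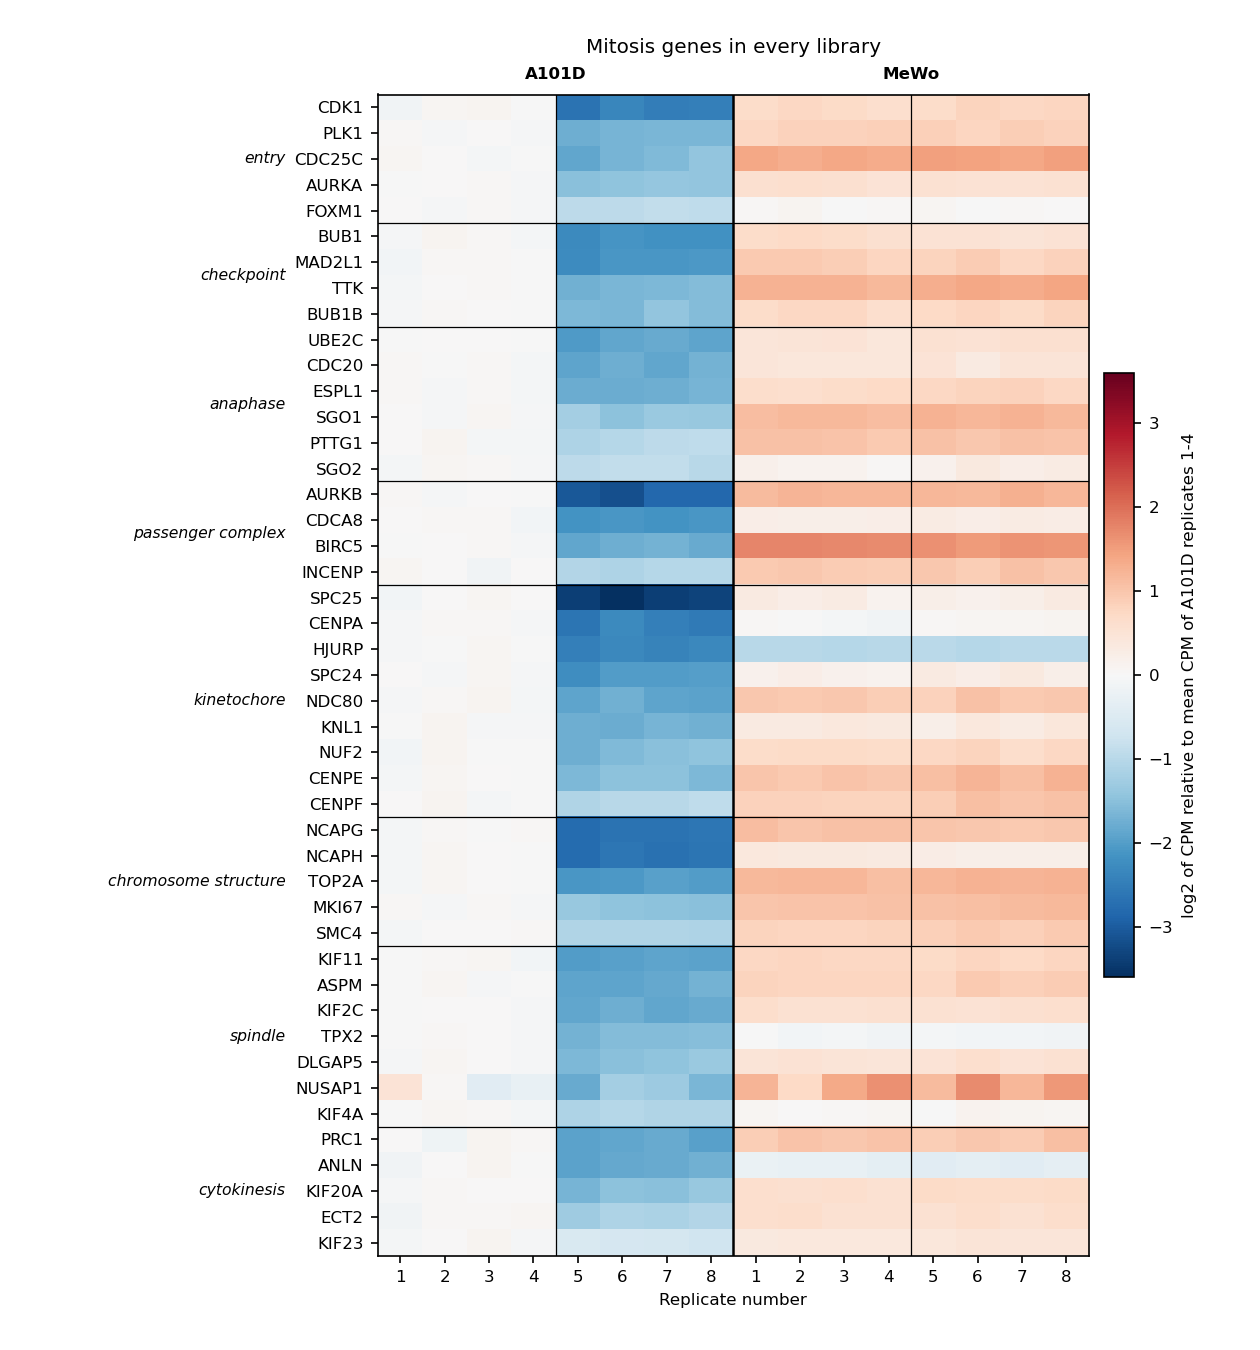
Level of each of the 45 mitosis genes (rows, grouped by role) in each of the 16 libraries (columns), as log2 of its CPM relative to the mean CPM of A101D replicates 1-4, with blue for lower and red for higher. Every row is blue in A101D replicates 5-8, deepest for SPC25 and AURKB, and most rows are red in MeWo, while HJURP, ANLN and, faintly, TPX2 are blue there.

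The libraries held between 28910881 and 38961862 counts. A101D replicates 5-8 also differed from replicates 1-4 in measures outside these genes: their scaling factors were 1.03 to 1.06 against 0.95 to 0.99, mitochondrial genes took 1.93% to 2.33% of counts against 1.71% to 1.92%, and 34020 to 34607 genes had a count against 31281 to 33107. Of the melanocytic markers, SOX10, MITF, MLANA, PMEL and DCT were present in all groups of A101D, while TYR and TYRP1 stayed below 2 CPM on average in that line. The 7 markers summed to 2199 to 2780 CPM in A101D replicates 1-4 and 1995 to 2177 CPM in replicates 5-8. In MeWo the same 7 summed to 10140 to 11340 CPM. Endothelial markers (4 genes) summed to 105 to 123 CPM and 136 to 143 CPM in the 2 ranges of A101D, with means of 110.8 and 123.5 CPM for KDR and 3.71 and 15.8 CPM for VWF (limma adjusted p 4.5e-20 for VWF). Epithelial markers (5 genes, nearly all KRT18) summed to 109 to 114 CPM and 141 to 165 CPM. Leukocyte markers (5 genes) were under 1 CPM in sum in every A101D library and fibroblast markers (5 genes) between 8.94 and 12.0 CPM. In MeWo the fibroblast markers summed to 76.1 to 85.9 CPM (nearly all LUM), the leukocyte markers to 2.49 to 3.27 CPM, the endothelial markers to 3.01 to 3.40 CPM and the epithelial markers to 2.13 to 3.37 CPM, so these lists also differed between the lines. The part of these differences in the results for the mitosis genes was not tested.

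The entry genes comprise CDK1, the kinase that starts mitosis, CDC25C, the phosphatase that activates it, PLK1 and AURKA, kinases of the centrosome and spindle, and FOXM1, a transcription factor of mitotic genes. All 5 were lower in A101D replicates 5-8, with a median log2 difference of -1.63. CDK1 (ENSG00000170312, chr10:60778331-60794852 in GENCODE 29, build GRCh38) measured 62.95, 72.7, 73.6 and 68.1 CPM in A101D replicates 1-4 and 10.9, 13.7, 12.4 and 12.6 CPM in replicates 5-8. The 4 values of replicates 5-8 lie far below the others, and 18% of the level remained (95% interval 16.5% to 19.7%), a log2 difference of -2.47 ± 0.06 (SE, n = 4 per group, limma adjusted p 1.39e-29). In MeWo CDK1 measured 109, 116, 112 and 106 CPM and then 109.5, 120.5, 115 and 118 CPM, overlapping ranges with a log2 difference of 0.07 (95% interval -0.02 to 0.15).

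PLK1 ran 56.1, 52.4, 54.9 and 52.6 CPM in A101D replicates 1-4 against 15.9, 16.9, 17.1 and 17.2 CPM in replicates 5-8, and 31.1% remained (log2 difference -1.68 ± 0.05 SE, adjusted p 4.2e-28). Its MeWo libraries gave 90.1, 95.8, 95.3 and 98.04 CPM and 97.8, 92.4, 99.8 and 96.6 CPM. AURKA gave 117, 119.9, 122 and 114 CPM in A101D replicates 1-4 and 41.9, 43.6, 45.1 and 43.96 CPM in replicates 5-8, so 36.9% remained (log2 difference -1.44 ± 0.04 SE, adjusted p 7.62e-30), while the 8 MeWo libraries all lay between 166 and 179 CPM. FOXM1 was the entry gene that differed least. It read 103, 99.5, 106 and 98.8 CPM in A101D replicates 1-4 and 53.3, 52.7, 55.4 and 54.4 CPM in replicates 5-8 (log2 difference -0.92 ± 0.04 SE, adjusted p 2.6e-23), and 106, 108, 99.9 and 105 CPM and 107, 100.9, 105 and 102 CPM in MeWo. FOXM1 therefore had nearly the same level in MeWo and in A101D replicates 1-4, and only A101D replicates 5-8 were set apart. CDC25C was the scarcest of the 5, with 6.17 ± 0.231 CPM in A101D replicates 1-4 and 1.997 ± 0.261 CPM in replicates 5-8 (mean ± SD, n = 4), and 15.8 ± 0.510 and 16.9 ± 0.524 CPM in MeWo.

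**Figure D2:**
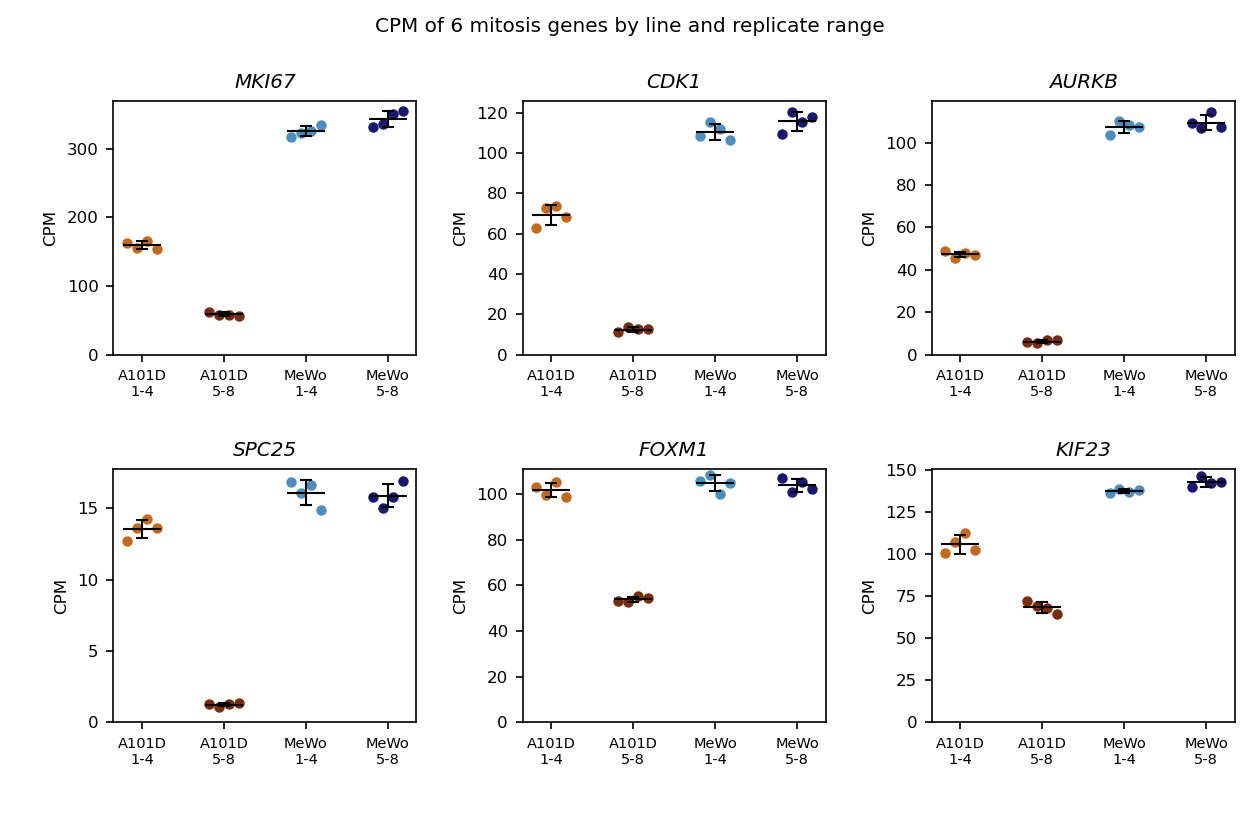
CPM (y axes, from 0) of MKI67, CDK1, AURKB, SPC25, FOXM1 and KIF23 in the 4 groups of 4 libraries; points are libraries, and the dash and bar are the mean and SD. In A101D the level of replicates 5-8 lies below that of replicates 1-4 for all 6 genes, from 9.32% of it for SPC25 to 64.7% for KIF23, and the MeWo ranges lie close together.

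The spindle checkpoint genes BUB1, BUB1B, TTK and MAD2L1 encode the proteins that hold back anaphase until every kinetochore is attached. All 4 were lower in A101D replicates 5-8, with a median log2 difference of -1.87. BUB1 differed most among them, with 84.9, 93.5, 90.5 and 83.8 CPM in A101D replicates 1-4 and 17.9, 20.2, 19.4 and 19.5 CPM in replicates 5-8 (log2 difference -2.19 ± 0.05 SE, adjusted p 8.19e-32). In MeWo it went the same way by a small margin, with 138, 146, 138 and 132 CPM in replicates 1-4 and 126, 126, 122 and 127 CPM in replicates 5-8 (log2 difference -0.14 ± 0.04 SE, limma adjusted p 0.00581). BUB1B, the checkpoint protein BubR1, differed least, with 65.7, 70.6, 68.2 and 67.5 CPM against 22.2, 21.9, 25.4 and 23.2 CPM in A101D, and 34.1% remained (log2 difference -1.55 ± 0.05 SE, adjusted p 4.04e-27). Its MeWo libraries overlapped, with 108, 114, 114 and 104 CPM and 111, 115, 110.5 and 119 CPM. TTK, the kinase MPS1, had 30.1 ± 0.909 and 9.71 ± 0.451 CPM in the ranges of A101D, and MAD2L1, the anaphase inhibitor MAD2, had 51.8 ± 2.32 and 11.9 ± 0.771 CPM (mean ± SD, n = 4).

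Genes of anaphase onset were all lower too, 6 of 6, with a median log2 difference of -1.55. They are CDC20, which activates the anaphase-promoting complex, UBE2C, its ubiquitin-conjugating enzyme, PTTG1 (securin) and ESPL1 (separase), which guard and cut cohesin, and the shugoshins SGO1 and SGO2, which protect cohesin at centromeres. UBE2C gave 75.2, 76.9, 77.2 and 74.6 CPM in A101D replicates 1-4 and 18.6, 20.8, 21.8 and 20.4 CPM in replicates 5-8, so 26.8% remained (log2 difference -1.90 ± 0.05 SE, adjusted p 5.28e-31). Its MeWo libraries gave 102, 105, 107 and 101.2 CPM and 111, 109.9, 114 and 114 CPM, slightly higher in replicates 5-8 (log2 difference 0.12 ± 0.04 SE, limma adjusted p 0.023), a call lost without any 1 of MeWo replicates 1, 2, 3, 4, 6, 7 and 8 (adjusted p 0.0658 to 0.162). CDC20 gave 99.8, 95.8, 101.2 and 92.5 CPM and 26.4, 29.01, 26.8 and 30.1 CPM in A101D, and 28.9% remained (log2 difference -1.79 ± 0.05 SE, adjusted p 3.67e-30). In MeWo CDC20 gave 131, 129, 130.0 and 128 CPM and 136, 122, 134 and 133 CPM, with overlapping ranges.

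SGO2 lay at the other end of the anaphase genes. It read 43.5, 47.6, 46.5 and 44.3 CPM in A101D replicates 1-4 and 23.5, 24.6, 24.8 and 22.9 CPM in replicates 5-8, and 51.7, 49.5, 49.3 and 46.9 CPM and 50.1, 58.4, 53.3 and 55.3 CPM in MeWo. Over 50% of its level remained in A101D replicates 5-8 (52.8%, log2 difference -0.92 ± 0.05 SE, adjusted p 2.67e-19). Securin was close to it, with 73.4 ± 3.995 and 36.7 ± 2.35 CPM in A101D, whereas separase, with 80.3 ± 2.86 and 23.8 ± 0.797 CPM, had a larger difference (log2 -1.75 against -1). SGO1 was scarce, at 10.3 ± 0.423 and 4.06 ± 0.293 CPM.

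The chromosomal passenger complex corrects faulty attachments and is made of the kinase AURKB, its scaffold INCENP, survivin (BIRC5) and borealin (CDCA8). Its 4 subunits were all lower in A101D replicates 5-8, but by unequal amounts. AURKB (ENSG00000178999, chr17:8204733-8210600) measured 48.8, 45.6, 47.8 and 46.9 CPM in replicates 1-4 and 5.67, 5.24, 6.62 and 6.63 CPM in replicates 5-8, a log2 difference of -2.97 ± 0.07 (SE, limma adjusted p 5.48e-31), and 12.7% remained. INCENP measured 123, 118, 107 and 116 CPM and 55.8, 53.9, 57.5 and 57.2 CPM, and 48.2% remained (log2 difference -1.05 ± 0.04 SE, adjusted p 9.98e-24). The 95% intervals of the log2 differences, -3.12 to -2.83 for AURKB and -1.14 to -0.97 for INCENP, do not overlap. CDCA8 and BIRC5 lay between them, with 23.0% and 29% remaining. In MeWo AURKB gave 104, 110.3, 108 and 107 CPM and 109, 107, 114 and 107 CPM, and INCENP gave 223, 229, 220.4 and 214 CPM and 229.7, 216, 241 and 229.6 CPM, with the ranges overlapping for both genes.

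Centromere and kinetochore genes formed the largest group, with 9 members, all lower in A101D replicates 5-8 (median log2 difference -1.86). SPC25 (ENSG00000152253, chr2:168834132-168913371), a subunit of the NDC80 complex that grips microtubules, differed most of all 45. It measured 12.7, 13.6, 14.3 and 13.6 CPM in A101D replicates 1-4 and 1.28, 1.08, 1.30 and 1.35 CPM in replicates 5-8, and 9.32% remained (95% interval 7.74% to 11.2%, log2 difference -3.42 ± 0.13 SE, limma adjusted p 3.66e-24). By size of the difference it was the 16th lowest of the 21569 genes tested. In MeWo SPC25 gave 16.8, 16.04, 16.6 and 14.8 CPM and 15.8, 15.03, 15.8 and 16.9 CPM, which overlap.

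The other subunits of the same complex were less far apart between the ranges of A101D. SPC24 kept 24.1%, NDC80 27.6% and NUF2 33.9% of the replicates 1-4 level. CENPA, the histone H3 variant that marks centromeres, gave 27.8, 29.7, 29.8 and 28.00 CPM and 4.70, 5.84, 5.26 and 4.95 CPM in A101D, so 18.1% remained (log2 difference -2.47 ± 0.08 SE, adjusted p 2.03e-27), and 29.8, 28.7, 27.4 and 26.2 CPM and 29.8, 30.5, 30.4 and 30.6 CPM in MeWo. HJURP, the chaperone that deposits CENPA, kept 19.4%, with 111 ± 3.71 and 21.5 ± 0.993 CPM. CENPF, a large protein of the outer kinetochore, differed least of the 9. It gave 322, 339, 303 and 314 CPM and 150.1, 160.3, 158 and 171 CPM in A101D, where 50.1% remained (log2 difference -0.998 ± 0.04 SE, adjusted p 1.3e-22). In MeWo CENPF went the other way, from 564, 564, 554 and 554 CPM in replicates 1-4 to 594, 675, 641 and 660.0 CPM in replicates 5-8 (log2 difference 0.20 ± 0.03 SE, limma adjusted p 8.75e-05). The kinesin CENPE kept 34.2% and the scaffold KNL1 30.1% in A101D.

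Chromosome structure genes include the condensin subunits SMC4, NCAPG and NCAPH, topoisomerase TOP2A, which untangles sister chromatids, and MKI67, the Ki-67 protein that coats mitotic chromosomes and serves as a stain for cycling cells. All 5 were lower in A101D replicates 5-8 (median log2 difference -2.03). MKI67 gave 163, 156, 166 and 154 CPM in A101D replicates 1-4 and 62.5, 57.95, 57.7 and 56.8 CPM in replicates 5-8, so 36.8% remained (log2 difference -1.44 ± 0.04 SE, adjusted p 1.15e-29), and 317, 324, 327 and 335 CPM and 332, 337, 351 and 355 CPM in MeWo. TOP2A gave 212, 232, 226 and 221 CPM and 51.9, 53.4, 57.05 and 55.2 CPM in A101D, so 24.5% remained (log2 difference -2.03 ± 0.04 SE, adjusted p 2.22e-34), and 501, 506, 507 and 476 CPM and 508, 528, 520.4 and 533 CPM in MeWo. For both genes the MeWo libraries lay far above those of A101D.

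The condensin subunits did not all differ by the same amount. NCAPG, a subunit of condensin I, gave 57.2, 61.1, 58.8 and 61.5 CPM and 8.79, 9.53, 9.45 and 9.79 CPM in A101D, where 15.8% remained (log2 difference -2.66 ± 0.06 SE, adjusted p 1.78e-32), and NCAPH, of the same complex, kept 15.9%. SMC4, which is shared by condensin I and II, gave 133, 139, 141 and 142 CPM and 65.2, 65.2, 66.1 and 64.1 CPM, and 47.0% remained (log2 difference -1.09 ± 0.04 SE, adjusted p 2.17e-26). In MeWo NCAPG gave 129, 119, 124 and 123 CPM and 119, 116, 116 and 117 CPM, and SMC4 gave 243, 239, 239 and 239.7 CPM and 251, 268, 249.8 and 268 CPM. The MeWo ranges of SMC4 did not overlap, and replicates 5-8 were higher (log2 difference 0.11 ± 0.03 SE, limma adjusted p 0.0112), a call lost without any 1 of MeWo replicates 1, 2, 3, 4, 6 and 8 (adjusted p 0.0586 to 0.154).

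Spindle motors and microtubule proteins were lower in A101D replicates 5-8 in 7 of 7 cases (median log2 difference -1.58). KIF11, the motor Eg5 that pushes spindle poles apart, gave 81.8, 85.4, 86.9 and 78.3 CPM and 20.5, 21.6, 22.2 and 21.9 CPM in A101D, and 26% remained (log2 difference -1.94 ± 0.05 SE, adjusted p 2.42e-31). KIF4A, a chromokinesin, differed least, with 81.7, 86.3, 85.01 and 78.9 CPM and 38.4, 40.9, 38.97 and 39.2 CPM and 47.5% remaining (log2 difference -1.07 ± 0.04 SE, adjusted p 1.43e-24). In MeWo KIF11 gave 141, 143, 140.4 and 138 CPM and 135, 143, 135 and 142 CPM and KIF4A gave 87.4, 84.3, 84.7 and 87.4 CPM and 82.9, 90.6, 88.04 and 87.2 CPM, all with overlap. KIF2C, ASPM, TPX2 and DLGAP5 kept between 28.1% and 36.0%. NUSAP1 had few counts, with 0.320 to 0.601 CPM in A101D replicates 1-4 and 0.122 to 0.184 CPM in replicates 5-8. Its interval is wide (38.0% remaining, 95% interval 22.5% to 64.1%, limma adjusted p 0.00121). Its coefficient of variation was the highest of the 45 in each of the 4 groups, 19.0% to 29.1% against medians of 2.73% to 5.12%.

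Of the cytokinesis genes, which build and cut the bridge between daughter cells, 5 of 5 were lower in A101D replicates 5-8 (median log2 difference -1.50). PRC1, the bundler of the central spindle, gave 9.32, 8.31, 9.999 and 9.61 CPM and 2.47, 2.53, 2.63 and 2.39 CPM in A101D, and 27.1% remained (log2 difference -1.88 ± 0.11 SE, adjusted p 1.05e-18). KIF23 (ENSG00000137807, chr15:69414246-69448427), the motor of the centralspindlin complex, differed least of all 45. It gave 100.5, 107, 113 and 102 CPM in replicates 1-4 and 71.8, 68.9, 68.1 and 64.3 CPM in replicates 5-8, and 64.7% remained (95% interval 61.3% to 68.3%, log2 difference -0.63 ± 0.04 SE, limma adjusted p 1.07e-17). In MeWo PRC1 gave 17.2, 18.9, 18.2 and 19.1 CPM and 17.4, 18.2, 17.6 and 19.7 CPM, and KIF23 gave 136, 138, 136 and 138 CPM and 139.5, 146, 142 and 143 CPM. ANLN (anillin), KIF20A and the RhoA activator ECT2 kept 28.4%, 35.4% and 45.5%. Besides KIF23, the genes under a 2-fold difference were FOXM1, SGO2 and CENPF, which with KIF23 make 4 of the 45.

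**Figure D3:**
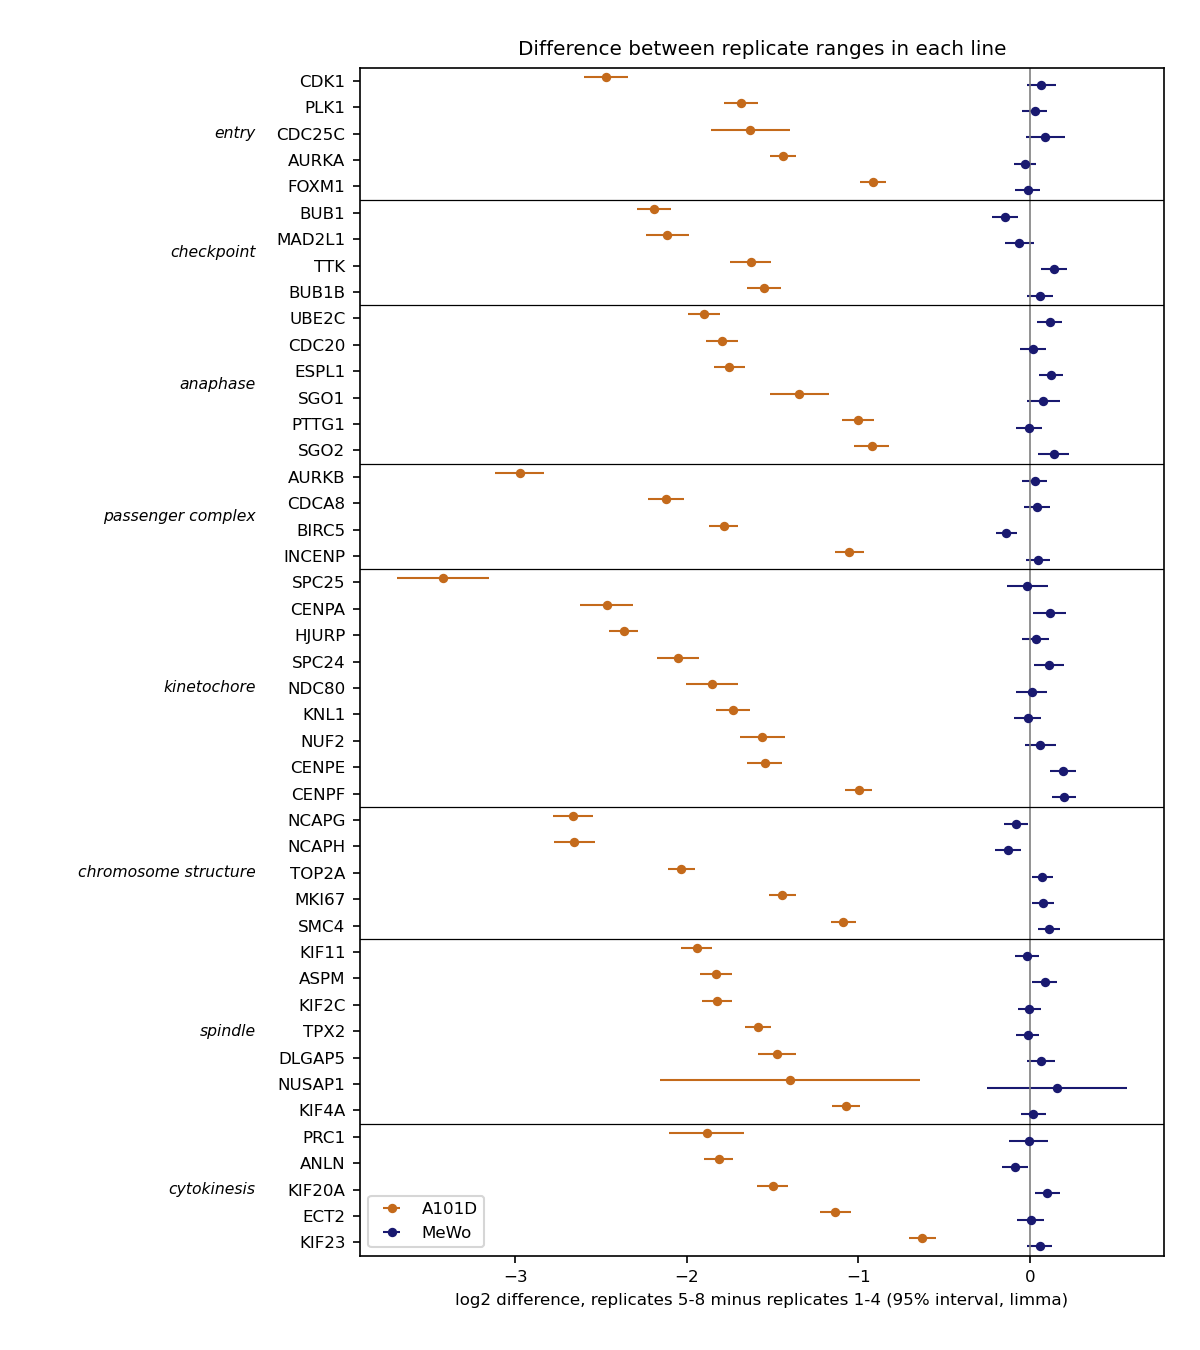
Log2 difference between replicates 5-8 and 1-4 for each of the 45 genes (rows, grouped by role) in A101D (orange) and MeWo (dark blue), with 95% intervals from limma. The A101D points run from -3.42 to -0.63 and the MeWo points from -0.14 to 0.20, and no interval of A101D reaches 0.

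The difference between replicate ranges was itself different between the lines for all 45 genes, always more negative in A101D (limma interaction term, adjusted p under 0.05), against 25.9% of all genes tested. The median of the interaction over the 45 was -1.73 on the log2 scale, against -0.02 over all genes. It ran from -3.41 for SPC25 to -0.68 for KIF23.

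Within MeWo the differences were small and their count was unsteady. TTK, UBE2C, ESPL1, SGO2, CENPE, CENPF and SMC4 were higher in replicates 5-8, 7 of 45 against 6.16% of all genes tested. BUB1, BIRC5 and NCAPH were lower, 3 of 45 against 7.45%. These 10 genes were named because they are the ones that passed. Libraries of the ranges did not overlap for 9 members that were higher and 4 that were lower, against 7.81% and 8.79% of all genes. CENPE had the smallest adjusted p after CENPF, with 129, 124, 131 and 126 CPM and 139, 152, 138 and 154 CPM (log2 difference 0.19 ± 0.04 SE, limma adjusted p 0.000421), and BIRC5 the smallest of the lower genes, with 345, 347, 341 and 336 CPM and 320.2, 299, 316 and 309.8 CPM (log2 difference -0.14 ± 0.03 SE, adjusted p 0.0013). Apart from NUSAP1 (-0.25 to 0.57), no 95% interval of the 45 reached beyond -0.22 or 0.27 on the log2 scale. Without MeWo replicate 3 or 6 the test passed 5 members in place of 10, and without replicate 1, 2 or 8 it passed 6. The number that were higher was between 2 and 4 without any of replicates 1, 2, 3, 4, 6, 7 and 8, and without replicate 4 the number lower became 6. The calls of CENPF, CENPE, BUB1 and BIRC5 held without each of the 8 MeWo libraries, that of NCAPH was lost without replicate 1, and those of TTK, UBE2C, ESPL1, SGO2 and SMC4 were each lost without at least 4 of them. Replicate 4 stood below the other 3 of its range for TTK (67.3 CPM against 71.3 to 71.8), and replicate 5 above for NCAPH (63.1 CPM against 61.1 to 61.4). The balance of higher and lower calls depended on the scaling. Upper-quartile scaling gave 13 higher and 3 lower and total counts 13 and 2, median-of-ratios scaling gave 4 and 3, and upper-quartile scaling over all genes with a count gave 1 higher and 5 lower with a median of -0.022. Among all genes called in MeWo, the share higher was 45.3% in the main fit, 54.8% with upper-quartile scaling and 66.3% with total counts. It was 33.5% with median-of-ratios scaling and 18.9% with upper-quartile scaling over all genes with a count.

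MeWo was compared with A101D within each replicate range, and these comparisons share their libraries with those above. In replicates 1-4, 39 of the 45 were higher in MeWo, against 37.1% of all genes tested, and 3 were lower, against 42.3%. The median log2 difference was 0.68, or 1.60-fold, against -0.05 over all genes. Libraries did not overlap for 38 genes that were higher in MeWo, against 33.9% of all genes. In replicates 5-8 all 45 were higher in MeWo, and with no overlap, against 40.3% of all genes by the test and 37.5% by the lack of overlap. The median log2 difference there was 2.46, or 5.51-fold, against -0.04 over all genes.

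The 3 genes lower in MeWo in replicates 1-4 were HJURP, ANLN and TPX2; upper-quartile scaling over all genes with a count, which moves the median of all genes to 0.41, left only HJURP lower, and pooling all 8 libraries of each line left 0. HJURP gave 108, 110.0, 117 and 110.5 CPM in A101D and 55.2, 55.5, 55.1 and 55.2 CPM in MeWo, a log2 difference of -1.01 ± 0.04 (SE, limma adjusted p 9.95e-26). ANLN gave 339.9, 377, 401 and 366 CPM in A101D and 316, 306, 306 and 293 CPM in MeWo (log2 difference -0.28 ± 0.04 SE). TPX2, which activates Aurora A on spindles, gave 199, 208, 204 and 194 CPM and 199, 188, 191 and 183 CPM, with 1 MeWo library reaching into the A101D range (log2 difference -0.08 ± 0.03 SE, adjusted p 0.0302). The call of TPX2 was lost with median-of-ratios scaling (adjusted p 0.121), upper-quartile scaling (adjusted p 0.0802) and a filter at 1 CPM (adjusted p 0.0897), and without A101D replicate 2 or 3 or any 1 of MeWo replicates 1 to 4 (adjusted p 0.0754 to 0.638). FOXM1, CENPA and KIF4A did not pass in replicates 1-4, with log2 differences of 0.04, -0.04 and 0.05. The sign for CENPA is not settled by these data, since it was 0.00 without A101D replicate 3 or MeWo replicate 3 and 0.04 without MeWo replicate 4. KIF4A passed without A101D replicate 3, MeWo replicate 3 or MeWo replicate 4, FOXM1 passed without MeWo replicate 3, and SGO2, which was higher in MeWo (log2 difference 0.12, adjusted p 0.0154), did not pass without A101D replicate 1 or 4. SGO2 also did not pass without a low-count filter (adjusted p 0.171) or with trimmed means over all genes (adjusted p 0.0879), and KIF4A passed with a filter at 1 CPM (adjusted p 0.0491). FOXM1, KIF4A, CENPA and TPX2 passed as higher in MeWo with upper-quartile scaling over all genes with a count and with all 8 libraries pooled. ANLN passed as higher with that scaling only.

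At the other end in replicates 1-4 stood BIRC5, with 103 ± 2.51 CPM in A101D and 342 ± 5.03 CPM in MeWo (mean ± SD, n = 4), a log2 difference of 1.74 ± 0.03 (SE). In replicates 5-8 the largest line difference belonged to AURKB, 18.2-fold higher in MeWo (log2 4.18 ± 0.07 SE, limma adjusted p 1.86e-37), followed by SPC25 at 12.6-fold and NCAPG at 12.4-fold. The smallest was FOXM1 at 1.93-fold. HJURP, lower in MeWo in replicates 1-4, was 2.63-fold higher there in replicates 5-8.

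**Figure D4:**
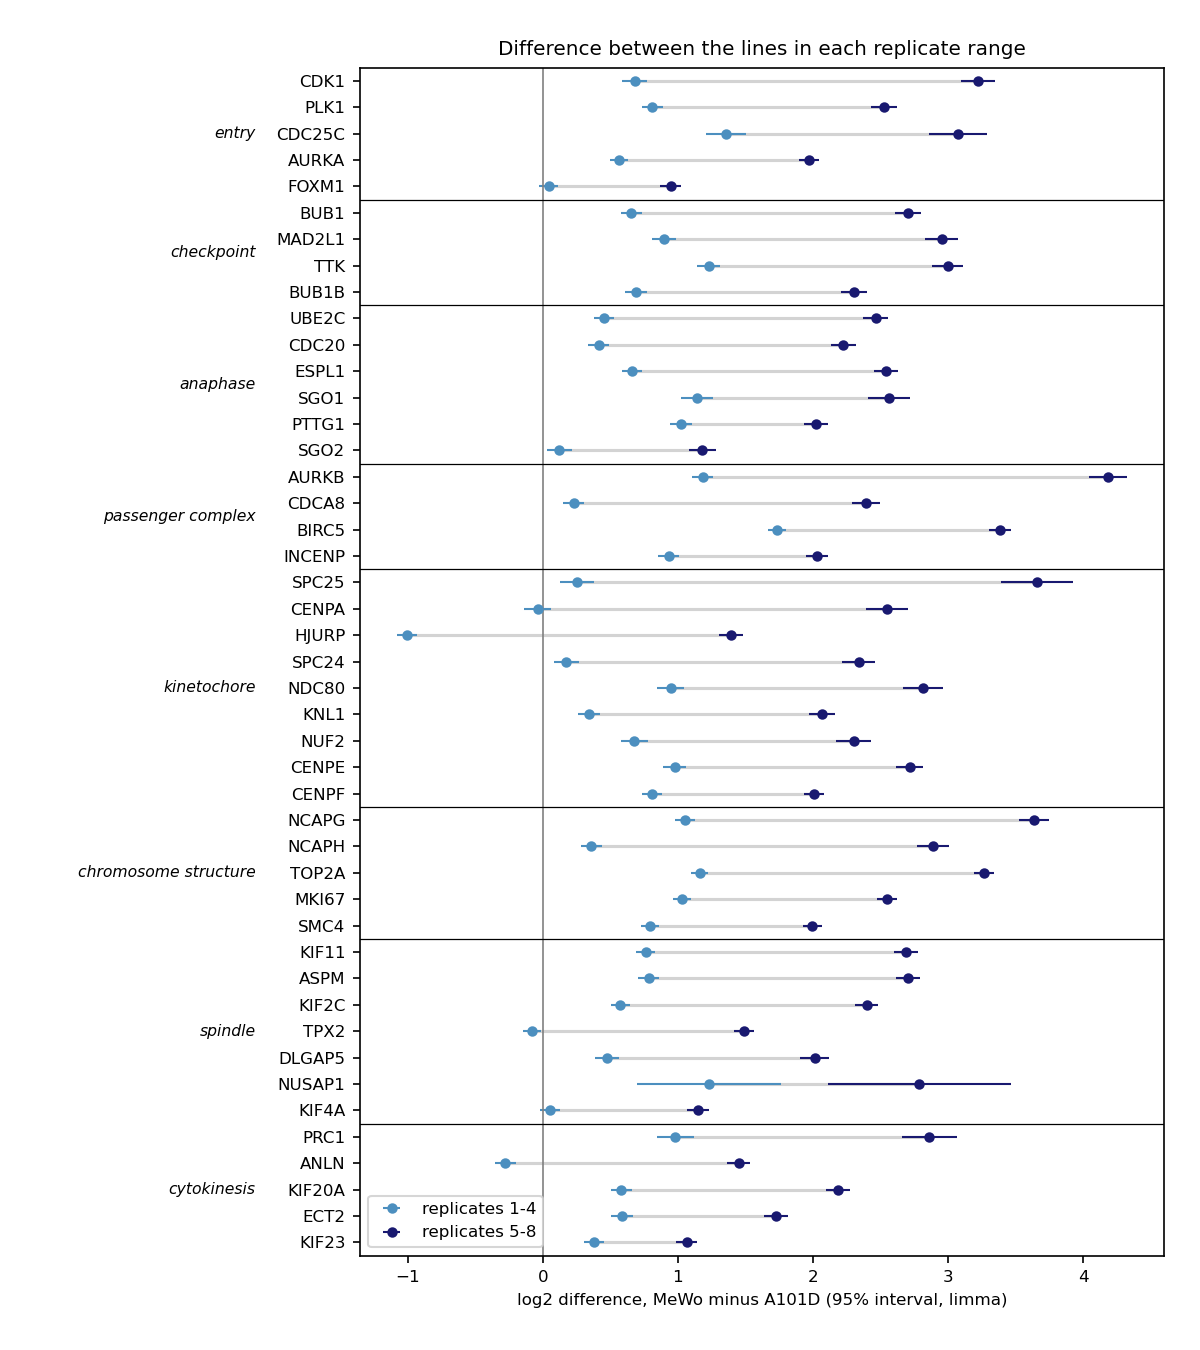
Log2 difference between MeWo and A101D for each of the 45 genes (rows, grouped by role) in replicates 1-4 (light blue) and replicates 5-8 (dark blue), with 95% intervals from limma and a grey line joining the points of a gene. The dark points run from 0.95 to 4.18, all above 0, and the light points from -1.01 to 1.74.

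Levels of different genes were compared per kilobase of merged exon length. In A101D replicates 1-4 the highest levels among the 45 were ANLN at 61.7, UBE2C at 59.1 and TPX2 at 55.8 CPM per kilobase. In A101D replicates 5-8 they were TPX2 at 18.6, PTTG1 at 18.2 and ANLN at 17.5 CPM per kilobase. AURKB moved from rank 13 of 45 to rank 31, and NCAPG from rank 29 to rank 39, while KIF23 moved from rank 23 to rank 10 and FOXM1 from rank 15 to rank 9. In MeWo the order was led by BIRC5 (89.7), UBE2C (80.7) and TOP2A (77.3 CPM per kilobase) in replicates 1-4 and by UBE2C (87.3), BIRC5 (81.6) and TOP2A (81.2 CPM per kilobase) in replicates 5-8. In A101D, ANLN and UBE2C in replicates 1-4, and TPX2 and PTTG1 in replicates 5-8, differed by less than the spread of their libraries (coefficients of variation 6.86% for ANLN and 6.42% for PTTG1), as did BIRC5 and TOP2A in MeWo replicates 5-8 (2.92% for BIRC5).

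A further 45 genes of mitosis, listed for comparison with earlier results of these data known, went the same way in A101D. All 45 of them were lower in replicates 5-8 (limma), against 32.4% of all genes tested, with a median log2 difference of -1.52. CCNA2, cyclin A2, stood at 1 end, with 62.1, 64.3, 63.9 and 61.4 CPM in replicates 1-4 and 7.47, 7.79, 9.21 and 7.86 CPM in replicates 5-8 (log2 difference -2.96 ± 0.06 SE). CDC25B, a phosphatase that acts early in entry, stood at the other, with 80.5, 77.9, 79.5 and 78.1 CPM and 66.1, 64.3, 64.1 and 57.3 CPM (log2 difference -0.33 ± 0.04 SE). In MeWo 5 of these 45 were higher, against 6.16% of all genes tested, 1 was lower, against 7.45%, and 39 did not pass.

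The core subunits of the anaphase-promoting complex, whose activator CDC20 and enzyme UBE2C are among the 45 members, differed much less. Of 13 subunits, 4 were lower and 3 higher in A101D replicates 5-8, 6 did not pass, and the median log2 difference was -0.05, while 32.4% of all genes tested were lower and 33.2% higher, so these shares are near those of all genes. ANAPC1, the largest subunit, was the lowest, with 114, 131, 114 and 114 CPM and 79.2, 81.8, 81.9 and 82.3 CPM in the ranges of A101D (log2 difference -0.54 ± 0.04 SE). CDC16 was the highest, with 56.3, 65.9, 60.99 and 60.7 CPM and 85.9, 80.1, 76.4 and 78.2 CPM (log2 difference 0.40 ± 0.04 SE).

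Of 14 subunits and partners of the MuvB, DREAM and NF-Y regulators, 10 were lower and 2 higher in A101D replicates 5-8, against 32.4% and 33.2% of all genes tested, with a median log2 difference of -0.46. MYBL2, which encodes B-MYB, was lowest, with 134, 134, 145 and 134 CPM in replicates 1-4 and 20.1, 21.2, 19.9 and 22.4 CPM in replicates 5-8 (log2 difference -2.71 ± 0.05 SE, limma adjusted p 7e-35). In MeWo it gave 75.9, 80.5, 73.5 and 72.7 CPM and 69.9, 63.8, 67.1 and 63.3 CPM, so its level in A101D replicates 1-4 exceeded both. NFYA, a subunit of NF-Y, was the highest, with 30.2, 30.8, 31.4 and 29.99 CPM and 42.3, 39.99, 40.6 and 37.2 CPM in A101D (log2 difference 0.39 ± 0.05 SE).

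Promoter windows of 300 bases (250 before to 50 after the start site) were found in the RefSeq table for 38 of the 45 genes. AURKA, FOXM1, TTK, UBE2C, BIRC5, KNL1 and TPX2 had no entry. A CHR word, TTTGAA on either strand or the palindrome TTCGAA, was in 29 of the 38 windows (76.3%), against 12.1% of the 13192 windows of genes tested and 16.6% of all 27305 windows. The CCAAT word was in 29 of 38 (76.3%), against 36.4% of genes tested and 35.7% of all, and at least 2 copies were in 17 (44.7%), against 13.3% and 11.3%. Both kinds of word were in 23 of 38 (60.5%), against 5.0% and 6.58%. They shared a base in 2 of the promoters. TGTTTAC, a word for forkhead factors on either strand, was in 1 window, that of CDK1 (2.63%), against 2.41% of genes tested. A match is a description of letters and not evidence of binding.

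The other 45 mitosis genes, with 37 windows, had a CHR word in 70.3% and CCAAT in 64.9%. The 13 subunits of the anaphase-promoting complex had them in 15.4% and 38.5%, and none had both. In the windows of the 38 members, the CHR words had a median first base at -28.5 and the CCAAT words at -74.5. Members with and without a CHR word had overlapping differences in A101D: the median log2 difference was -1.79 for the 29 with a CHR word and -1.63 for the 9 without, with ranges of -3.42 to -0.63 and -2.97 to -0.92. A related word, TTTAAA, was counted apart and not as a CHR word. It was in 13 of the 38 windows (34.2%), against 8.44% of genes tested. Among the 9 without a CHR word, PTTG1, SGO2, CENPE, NCAPH, KIF2C and KIF20A had TTTAAA. SPC25 and KIF23, at the ends of the 45, both carry the pair of words printed above. AURKB, NCAPH, SPC24, KIF20A, PTTG1 and SGO2 have CCAAT and no CHR word in the window. Their log2 differences in A101D ran from -2.97 for AURKB to -0.92 for SGO2.

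**Figure D5:**
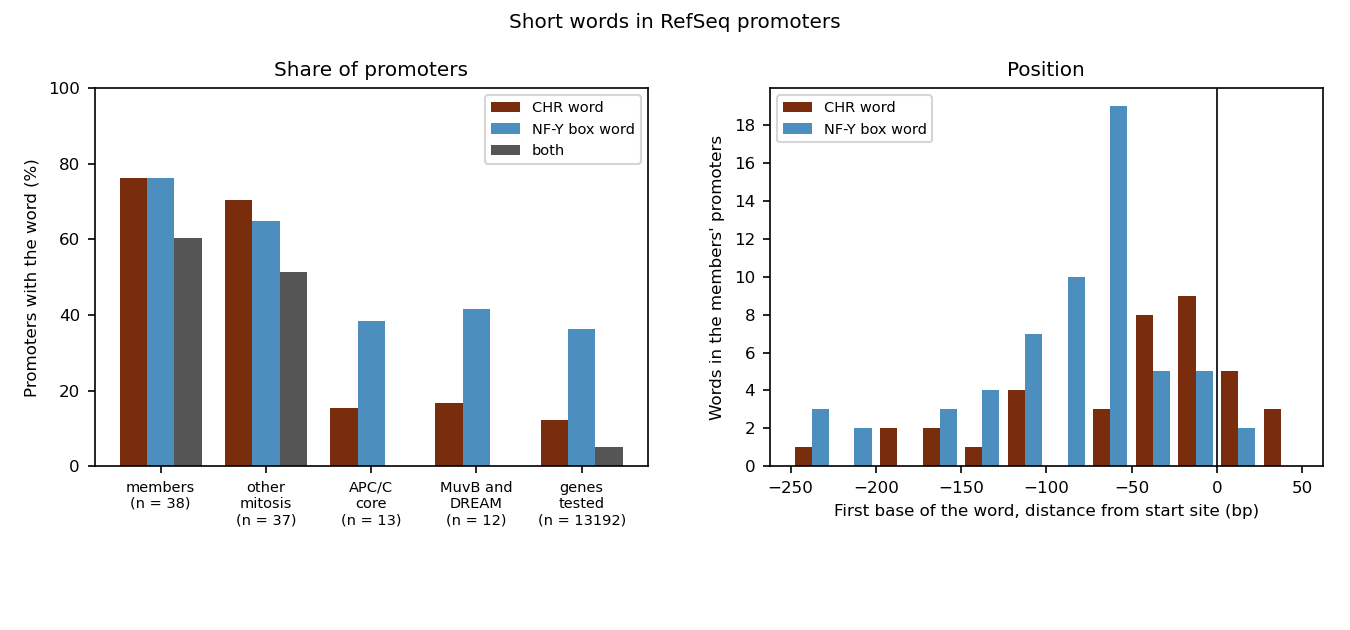
Left, share of RefSeq promoter windows (%) that hold a CHR word, an NF-Y box word or both, for the members, other mitosis genes, subunits of the anaphase-promoting complex, MuvB and DREAM regulators and all genes tested, with the number of windows under each. Right, number of words in the members' windows by distance of the first base from the start site (bp). The members reach 76.3% for either word against 12.1% and 36.4% of genes tested. The median first base is -74.5 for NF-Y words (quartiles -107.5 and -53) and -28.5 for CHR words (quartiles -100.5 and -3), so their positions overlap.

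Counting limits bear on a few members. Exons of 20 of the 45 share bases with another gene in GENCODE 29, over 50% of them in NUSAP1 (62.2%) and PRC1 (58.4%), and the counts do not say how shared reads were assigned. The gene that overlaps NUSAP1 on the same strand, AC087721.2, had 0 counts in every library. AC068831.7, which shares exons with PRC1, had 4.61 to 5.90 CPM in A101D replicates 1-4 and 0.732 to 1.07 CPM in replicates 5-8, and 6.86 to 9.52 and 8.10 to 9.28 CPM in MeWo. Levels of NUSAP1 and PRC1 are therefore uncertain. Pseudogenes named after members exist for 11 of the 45, and their counts were at most 2.45% of the counts of the gene (UBE2C).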

How the data were processed

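RNA of A101D and MeWo cells was measured by stranded total RNA sequencing in 8 libraries per line. The deposited tables hold the authors' read counts per Ensembl gene, not normalized, and per the file headers each value comes from a sorted alignment of 1 library; each cell joins the gene identifier and the count, another format than a plain count column. Per the submitters' processing notes, Trimmomatic 0.39-1, STAR 2.7.1a, featureCounts 2.0.0 and build GRCh38 were used. Which strand setting and annotation release were used is not stated in these sources.

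Identifiers were paired with symbols and GENCODE 29 coordinates, and 60357 of 60676 matched a symbol. Libraries were scaled by trimmed mean of M-values, with trims of 30% and 5%, over the 21569 genes that had a CPM of at least 0.298 in at least 4 libraries and at least 15 counts in all. A model of 4 group means (line by replicate range) was fitted to all 16 libraries with limma 3.58.1 (voom weights, robust variance) in R 4.3.3. Tests are two-sided, with Benjamini-Hochberg adjustment over all genes tested and a threshold of 0.05; intervals are 95% intervals of the log2 difference, and percentages remaining are its antilog. Correlations of the deviations of same-numbered libraries of the 2 lines were weak, -0.02 to 0.077, which does not exclude a weak pairing by number. No pair of libraries agreed within sampling noise (lowest chi-square per degree of freedom 1.86). The smallest count of a member in any library was 4, in NUSAP1. On data simulated for the A101D comparison over 19812 genes, the procedure called 10 of 50 genes changed 1.25-fold, 36 of 50 changed 1.5-fold, 47 of 50 changed 2-fold and 50 of 50 changed 4-fold, with 2 false calls. Only these sets were changed, and every gene had the same simulated dispersion. In the real A101D comparison 65.6% of all genes were called, so the simulation does not show how the procedure behaves under so broad a shift.

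The members, the lists and the split by replicate number were chosen with earlier results of these data known. Values in every library were given for a fixed set (MKI67, TOP2A, CDK1, PLK1, AURKA, AURKB, CDC20, BUB1B, CENPA, FOXM1 and UBE2C), for the members with the largest and the smallest difference in A101D within each role, and for the ends of each other list. Further genes were named where a small count rests on them, after their values were seen. Alternatives were other scalings, filters, the limma-trend test, a stricter threshold, a replicate block, pooled ranges, fits of 1 line and leaving out each library.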

Additional observations from a re-analysis of the deposited data

Results flagged for a closer look

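In A101D replicates 5-8 against 1-4, the difference between replicate ranges was not the same as in MeWo for all 45 members by the interaction term of the limma fit. Among the 22 members given with full statistics, the interaction on the log2 scale was largest for SPC25 (-3.41), AURKB (-3.003), NCAPG (-2.58), CENPA (-2.58) and CDK1 (-2.54), with adjusted p between 2.98e-29 and 2.76e-22. It was -2.10 for TOP2A, -2.05 for BUB1, -2.01 for UBE2C, -1.93 for KIF11, -1.88 for PRC1, -1.81 for CDC20, -1.71 for PLK1, -1.61 for BUB1B and -1.52 for MKI67. It was -1.41 for AURKA, -1.2 for SMC4, -1.2 for CENPF, -1.1 for INCENP, -1.09 for KIF4A, -1.06 for SGO2, -0.90 for FOXM1 and -0.68 for KIF23, the smallest, with an adjusted p of 2.69e-14.

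Single libraries lay apart from the other 3 of their group in 7 of 188 groups examined, by the ratio of the gap to the group's range, and chance gives about 1 in 20, or 9.4. High libraries were A101D replicate 2 for KNL1 (85.81 CPM) and ASPM (128.8 CPM) and MeWo replicate 5 for NCAPH (63.07 CPM). Low libraries were A101D replicate 5 for MAD2L1 (10.77 CPM) and TPX2 (62.09 CPM), MeWo replicate 4 for TTK (67.26 CPM) and MeWo replicate 6 for HJURP (55.09 CPM).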

How the results depend on the processing

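All 45 members stayed lower in A101D replicates 5-8, and all 45 kept a more negative difference there than in MeWo, in each alternative run. For A101D the median log2 difference was -1.65 with upper-quartile scaling, -1.63 with total counts, -1.79 without a low-count filter, -1.83 with upper-quartile scaling over all genes with a count and -1.79 with trimmed means over all genes (the last 2 scalings were chosen after seeing the data), and -1.74 to -1.70 leaving out 1 library. The median interaction was -1.67 with upper-quartile scaling and -1.66 with total counts. Total counts moved the share of higher calls among all genes called in A101D to 59.5% and in MeWo to 66.3%, and upper-quartile scaling over all genes with a count moved it to 42% and 18.9%.

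For MeWo, 4 members were higher with median-of-ratios scaling or without a filter, 13 of 16 called were higher with upper-quartile scaling, and 13 with total counts (median log2 difference 0.0785). At an adjusted p threshold of 0.01, 5 members passed, 3 of them higher, against 7.4% of all genes tested. Upper-quartile scaling over all genes with a count gave 6 members, of which 1 was higher and 5 lower, and a reversed median of -0.022. Trimmed means over all genes gave 6, of which 3 were higher. The share of all genes called was 14% with median-of-ratios scaling, 3.98% without a filter, 13.8% with upper-quartile scaling and 14.3% with total counts. It was 15.5% with upper-quartile scaling over all genes with a count and 13.1% with trimmed means over all genes. Leaving out 1 library gave 5 to 11 members, 2 to 8 higher and 2 to 6 lower, against 9.42% to 16.8% of all genes tested. Medians over the members were then 0.0099 to 0.0458.

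For the lines in replicates 1-4, the median log2 difference was 0.65 without a filter, 0.65 with trimmed means over all genes, 1.15 with upper-quartile scaling over all genes with a count, and 1.504 with all 8 libraries pooled, where 0 members were lower against 1 with that scaling. With that scaling CENPA reversed to 0.43 (limma adjusted p 8.37e-09), ANLN to 0.19 (0.000698) and TPX2 to 0.39 (5.35e-10), all passing as higher in MeWo. Pooled, CENPA reversed to 1.28 (limma adjusted p 0.00651) and TPX2 to 0.71 (0.0238), and both passed as higher. ANLN reversed to 0.59 (0.093) and HJURP to 0.21 (0.648) in the pooled fit, and neither passed. CENPA ran from -0.0595 to 0.0376 leaving out 1 library, where medians over the members ran from 0.64 to 0.73. In replicates 5-8 the median was 2.40 with total counts, 1.504 pooled and 2.96 with upper-quartile scaling over all genes with a count, and 2.41 to 2.49 leaving out 1 library. The cause of these shifts was not tested. With the replicate number as a block, 42 members passed between the lines in replicates 1-4 and 45 in replicates 5-8. The interaction passed for 45, and these counts were the same without the block. Over 8 pairs, 3 libraries correlated best with their own number. With deviations taken within groups of 4 libraries, this cannot exclude a weak pairing of the lines by number. Low counts limit NUSAP1 most, with 4 to 9 counts in the lowest A101D libraries, and their cause was not tested.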
